A study of Homo sapiens with 15 samples.

Results

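Oxidative phosphorylation (OXPHOS) is carried out by 5 protein complexes of the inner mitochondrial membrane, and the genes described here are those that the nucleus contributes to them. The members were taken by symbol from the protein-coding genes of the autosomes and the X chromosome in the Gencode annotation of hg19, as all genes whose symbols begin with NDUFA, NDUFB, NDUFC, NDUFS, NDUFV, UQCR, COX4, COX5, COX6, COX7, COX8 or ATP5, together with SDHA, SDHB, SDHC and SDHD, and without the NDUFAF and SDHAF assembly factors. The rule found 90 of 20098 coding genes, 38 of complex I, 4 of complex II, 9 of complex III, 19 of complex IV and 20 of complex V, with NDUFA4 and NDUFA4L2 counted under complex IV despite their symbols. It used no measured value.

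The contacts came from HiChIP, an assay that ligates DNA ends lying close together in the nucleus and then pulls down those that carry a chosen histone mark, here H3K27ac, found at active promoters and enhancers, or H3K4me3, found mainly at active promoters. The cells were LNCaP, an androgen-responsive prostate cancer line, which were starved of steroid hormones in charcoal-stripped serum. The androgen dihydrotestosterone (DHT, 10 nM) was then given, and cells were taken after 30 m and after 4, 16 and 72 h. The controls (0 m) received vehicle. H3K27ac has 2 labelled replicates at each of the 5 time points and H3K4me3 has 1, but each loop has a single deposited value at each time point of a mark. No difference below therefore has a replicate check, and intervals cover counting error only. All groups are the same cell line without any genetic change, and no other line was measured.

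Complexes I to IV pass electrons from NADH or succinate to oxygen and, except for complex II, pump protons as they do so. Complex V, the ATP synthase, lets the protons flow back and makes ATP. The mitochondrial genome supplies only a small number of core subunits of complexes I, III, IV and V, while all 4 subunits of complex II and the large majority of the others are made from nuclear genes that are active in nearly every tissue. NRF1, the ETS factor GABPA, YY1 and SP1 are the transcription factors best known for binding the promoters of these nuclear genes.

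The promoter sequences of the members carried the letters of these factors more often than other promoters did, apart from the SP1 box. RefSeq promoters (GRCh38.p14, 250 bases before to 50 after the start) were matched by symbol for 71 of the 90 members and for 15289 coding genes in all. The NRF1 core GCGCANGCG stood on either strand in 23 of 71 member promoters (32.4%) and in 11.2% of all promoters of that length. The ETS core CCGGAAG was found in 20 (28.2%) against 14.4%, and the YY1 core AAGATGGC in 11 (15.5%) against 3.98%. The SP1 box GGGCGG was found in 43 (60.6%) against 59.3%. Both NRF1 and ETS letters stood in 5 member promoters (7.04% against 2.37% of all). None of the searched motifs contains another, but an NRF1 match can be read on both strands at the same place. The median GC content was 61% in the members and 63% in all promoters, and the median ratio of observed to expected CpG was 0.846 and 0.768. A match is a run of letters and was not tested as a binding site.

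**Figure D1:**
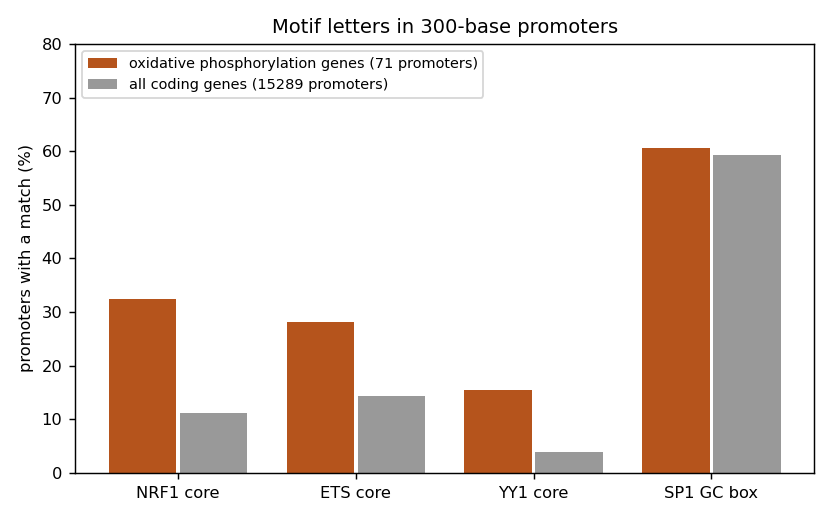
Share of RefSeq promoters of 300 bases that hold the letters of each motif on either strand, in percent, for 71 OXPHOS genes and for 15289 coding genes. The bars of the OXPHOS genes are higher for NRF1, ETS and YY1 (32.4, 28.2 and 15.5% against 11.2, 14.4 and 3.98%) and about level for SP1 (60.6 and 59.3%).

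The following 6 promoters are those of 5 genes with the strongest contact of their complex or with clear changes in contact below, and of SDHA. The contact of SDHA is not the strongest of complex II, and its call in H3K27ac at 4 h rests on 107 read pairs. Each promoter runs 5′ to 3′ on the strand of its gene, from 250 bases before to 50 after the RefSeq start. It was placed on hg19 by an exact match. Capitals mark the NRF1, ETS, YY1 and SP1 letters.
NDUFB4, chr3:120314933-120315232 (hg19, plus strand): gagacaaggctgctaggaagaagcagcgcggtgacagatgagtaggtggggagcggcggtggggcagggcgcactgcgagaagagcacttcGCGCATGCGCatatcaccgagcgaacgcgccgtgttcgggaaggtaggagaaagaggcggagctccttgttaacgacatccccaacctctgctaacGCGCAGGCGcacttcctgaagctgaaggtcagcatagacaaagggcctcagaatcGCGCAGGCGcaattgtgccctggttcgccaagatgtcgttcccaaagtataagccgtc
NDUFA7, chr19:8386210-8386509 (hg19, minus strand): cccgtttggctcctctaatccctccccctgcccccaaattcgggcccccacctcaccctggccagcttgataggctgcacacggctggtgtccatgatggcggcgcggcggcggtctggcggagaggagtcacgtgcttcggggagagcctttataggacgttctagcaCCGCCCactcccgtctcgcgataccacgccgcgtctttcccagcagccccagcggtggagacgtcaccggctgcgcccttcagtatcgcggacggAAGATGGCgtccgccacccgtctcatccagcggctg
SDHA, chr5:218185-218484 (hg19, plus strand): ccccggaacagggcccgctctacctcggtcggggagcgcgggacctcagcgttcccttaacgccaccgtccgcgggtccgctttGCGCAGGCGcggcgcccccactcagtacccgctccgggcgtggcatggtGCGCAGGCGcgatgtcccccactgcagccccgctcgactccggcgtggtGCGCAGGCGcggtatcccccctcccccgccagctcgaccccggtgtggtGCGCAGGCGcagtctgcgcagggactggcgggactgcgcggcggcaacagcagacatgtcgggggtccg
UQCRH, chr1:46769120-46769419 (hg19, plus strand): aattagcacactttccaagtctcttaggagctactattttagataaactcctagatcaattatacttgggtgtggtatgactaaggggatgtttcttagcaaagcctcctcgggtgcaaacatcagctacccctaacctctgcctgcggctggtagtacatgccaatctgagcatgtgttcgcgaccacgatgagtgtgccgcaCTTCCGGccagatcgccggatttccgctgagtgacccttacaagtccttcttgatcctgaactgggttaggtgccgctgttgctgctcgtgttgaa
COX4I1, chr16:85833051-85833350 (hg19, plus strand): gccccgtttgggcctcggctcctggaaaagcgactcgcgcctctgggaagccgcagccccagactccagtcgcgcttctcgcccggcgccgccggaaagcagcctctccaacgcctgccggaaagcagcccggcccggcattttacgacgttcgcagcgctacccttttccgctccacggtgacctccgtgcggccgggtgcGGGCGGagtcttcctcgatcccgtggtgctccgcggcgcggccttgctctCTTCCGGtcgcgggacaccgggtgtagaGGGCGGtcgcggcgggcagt
ATP5ME, chr4:668016-668315 (hg19, minus strand): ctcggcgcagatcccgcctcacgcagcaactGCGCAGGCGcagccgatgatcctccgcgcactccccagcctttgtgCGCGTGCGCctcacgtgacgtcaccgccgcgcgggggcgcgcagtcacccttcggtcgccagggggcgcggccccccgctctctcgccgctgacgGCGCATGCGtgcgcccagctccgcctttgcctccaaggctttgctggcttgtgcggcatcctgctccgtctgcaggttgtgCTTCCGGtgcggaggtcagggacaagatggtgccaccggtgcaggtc
SDHA held 4 separate NRF1 sites, NDUFB4 and ATP5ME 3 each, and ATP5ME an ETS site in addition. NDUFA7 held YY1 and SP1 letters, UQCRH a single ETS site, and COX4I1 an ETS site with 2 SP1 boxes; the RefSeq start of COX4I1 lies 1062 bp from its Gencode start, while those of the other 5 lie within 54 bp.

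The 10 tables list 505995 different loops, each a pair of 1 kb anchors on a 5 kb grid. A promoter was taken as the 2.5 kb on either side of the annotated gene start, and its contact at a time point is the sum over the loops with an anchor there, in the deposited contact units, which are scaled within a mark and are not comparable between marks. The recovered H3K27ac read pairs of a time point numbered 2475168 to 4308555. Those of H3K4me3 numbered 2153262 to 10675614, and the 4 h library was the deepest, since the other 4 reached at most 4115072. The promoters of the luminal prostate genes KLK3, KLK2, HOXB13, TMPRSS2, KRT8 and KRT18 all had loops (5 to 68), and those of the basal genes TP63, KRT5 and KRT14 had none.

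OXPHOS promoters had more loops than the median promoter in these cells. Of the 90 members, 84 had at least 1 loop, against 16083 of all 20098 coding genes, and together they took part in 3328 of the 285860 loops at coding promoters. A member with loops had a median of 37.5 loops (interquartile range 22 to 52.5), against 19 for all promoters with loops (5 to 37). Ranks and percentiles of contact are those of the mean over the 5 time points. The median member stood at percentile 66.2 of all promoters in summed H3K27ac contact and at percentile 75.8 in H3K4me3 contact. The cytosolic ribosomal protein genes stood higher still, with a median of 40 loops and median percentiles of 86.7 and 87.0. Above the median of all promoters were 64 of 84 members in H3K27ac and 70 of 84 in H3K4me3. The members ranked higher in H3K4me3 than in H3K27ac in 69 of 84 cases, against 8869 of all 16083 promoters. In a cell population, a contact made in fewer cells and a weaker contact per cell cannot be told apart, nor can the amount of the mark and the frequency of the loop.

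**Figure D2:**
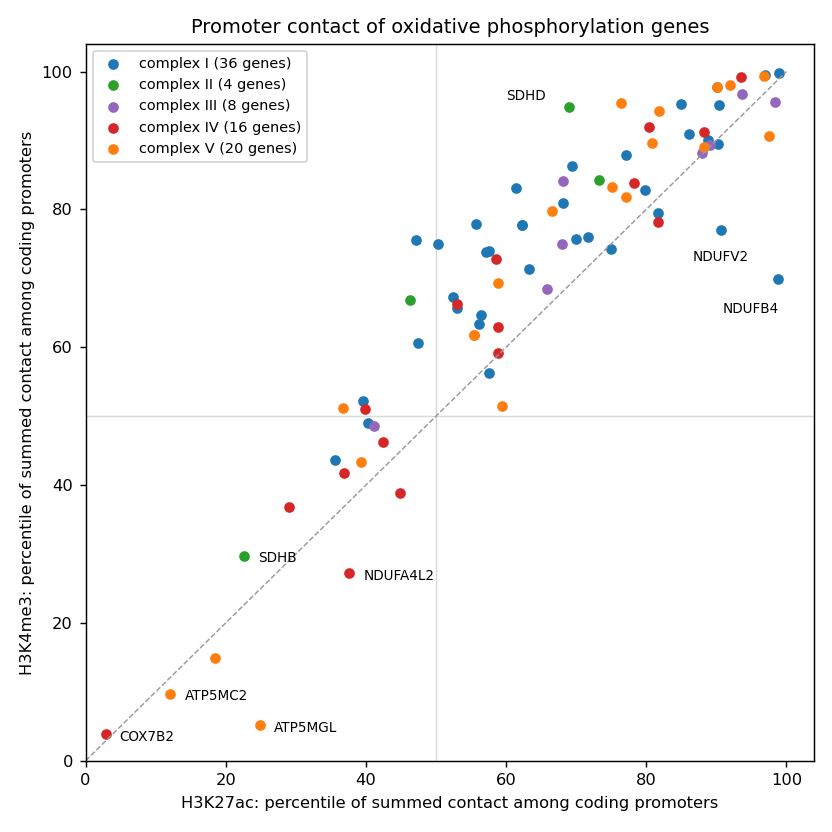
Percentile of each OXPHOS gene among 16083 coding promoters in summed contact, averaged over 5 time points, with H3K27ac on the x axis and H3K4me3 on the y axis; points are 84 genes coloured by complex, and the dashed line marks equal percentiles. Most points lie above the line (69 of 84), with NDUFB4 and NDUFV2 far below it at high H3K27ac contact and COX7B2, ATP5MC2 (at its gene start) and ATP5MGL near the bottom.

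The largest group is complex I, the NADH dehydrogenase, which takes electrons from NADH. Its 36 members with loops had a median of 41 loops and stood at median percentiles of 65.7 in H3K27ac and 76.5 in H3K4me3. NDUFB10, an accessory subunit of the membrane arm, had the highest mean contact of all members in both marks, although at single time points NDUFB4 and UQCRH passed it in H3K27ac. Its H3K27ac contact was 170.4 at 0 m, then 279.6, 183, 160.1 and 147 from 30 m to 72 h of DHT, and its H3K4me3 contact was 369.7 at 0 m, then 337, 417, 336 and 250.4 from 30 m to 72 h of DHT. NDUFA11, another membrane arm subunit, followed in H3K4me3 with 299.8 at 0 m, then 333, 367, 304 and 226 from 30 m to 72 h of DHT, and its H3K27ac contact was 92.3 at 0 m, then 200.4, 106, 123 and 134 from 30 m to 72 h of DHT. Both genes are in the highest few percent of all promoters in either mark (percentiles 99.0 and 99.8 for NDUFB10, 97.0 and 99.5 for NDUFA11).

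NDUFB4, also of the membrane arm, went against the pattern of the group. Its mean H3K27ac contact was the second highest of all members, at percentile 98.8, and its contact exceeded that of NDUFB10 at 0 m, 16 h and 72 h, with 211 at 0 m, then 142, 163, 188 and 191 from 30 m to 72 h of DHT. Its H3K4me3 contact stood at percentile 69.9 only, with 61.5 at 0 m, then 70.4, 80.1, 83.1 and 61.8 from 30 m to 72 h of DHT. NDUFV2, an iron-sulfur subunit of the module that oxidizes NADH, likewise ranked higher in H3K27ac (90.6) than in H3K4me3 (77.1). At the low end of complex I stood NDUFV1, the subunit that binds NADH and its flavin, with 8 loops and percentiles of 35.6 and 43.7.

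Complex II, the succinate dehydrogenase, links the citric acid cycle to the chain through 4 genes, and their promoters were unequal. SDHD, a membrane anchor, had 76 loops, SDHA, the flavoprotein, 26, SDHC, the other anchor, 18, and SDHB, the iron-sulfur subunit, 6. The H3K27ac contact of SDHC was 41.1 at 0 m, then 49.5, 42.5, 37.4 and 45.0 from 30 m to 72 h of DHT. That of SDHD was 38.8 at 0 m, then 42.6, 35.5, 34.4 and 36.1 from 30 m to 72 h of DHT. That of SDHA was 17.0 at 0 m, then 21.2, 10.5, 19.7 and 15.8 from 30 m to 72 h of DHT, and that of SDHB was 3.82 at 0 m, then 3.78, 6.20, 2.34 and 2.63 from 30 m to 72 h of DHT, so that SDHB lay below the other 3 at every time point. In H3K4me3 the order was SDHD, SDHC, SDHA and SDHB at each time point, with SDHD at 156 at 0 m, then 175, 187, 196 and 147 from 30 m to 72 h of DHT and SDHB at 9.59 at 0 m, then 12.3, 8.72, 11.2 and 5.50 from 30 m to 72 h of DHT.

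The 8 connected members of complex III, the cytochrome bc1 complex, had the highest median percentiles of the 5 complexes, 78.0 in H3K27ac and 86.1 in H3K4me3. UQCRH, the hinge protein, led in H3K27ac with 125 at 0 m, then 177, 118, 212 and 169 from 30 m to 72 h of DHT. UQCRQ, a small accessory subunit, led in mean H3K4me3 contact, though not at 4 h, when UQCRH was higher, with 184 at 0 m, then 188, 233, 222 and 162 from 30 m to 72 h of DHT. UQCRB, another accessory subunit, was the lowest, at percentiles 41.1 and 48.6. Over the time course UQCRH spanned a wider range in both marks than UQCRQ, whose H3K27ac contact was 87.9 at 0 m, then 118, 78.6, 101 and 109 from 30 m to 72 h of DHT.

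Complex IV, the cytochrome c oxidase, had the lowest median percentiles of the 5 complexes (55.8 and 61.0), and its members separated by isoform. COX4I1, the widely used form of subunit 4, had 137 loops, the most of all members, with an H3K27ac contact of 77.9 at 0 m, then 129.6, 81.0, 107 and 94.99 from 30 m to 72 h of DHT. COX4I2, its lung form, had no loop. COX8A, the widely used form of subunit 8, stood at percentiles 88.3 and 91.3, and COX8C, its testis form, had no loop.

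The other isoform pairs fell the same way, to differing degrees. COX6B1 had 43 loops and percentiles of 80.3 and 91.9, and its testis form COX6B2 had 22 loops and percentiles of 58.8 and 59.1. COX6A1 stood at 58.5 and 72.8, above COX6A2, the muscle form, at 29.1 and 36.8. COX7B stood at 58.8 and 62.9, and its testis form COX7B2 was the lowest of the 84 members with loops, with 2 loops and percentiles of 2.9 and 3.8. NDUFA4, first described as part of complex I, had 51 loops, and its paralog NDUFA4L2, known for its response to low oxygen, had 12.

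At the annotated gene start COX7A was the exception, since COX7A1, the muscle form, and COX7A2, the widely used form, each had 1 loop at the annotated gene start. The annotated start of COX7A2 lies 6522 bp from that of its canonical transcript, and at the latter it had 65 loops, with H3K27ac contact between 33.3 and 54.5. The single loop of COX7A1 joins its window to the promoter of CAPNS1, 10 kb away. At the canonical starts (that of COX7A1 lies 2 bp from its gene start) the mean contact of COX7A2 was higher, 43.1 against 14.0 in H3K27ac and 75.7 against 29.8 in H3K4me3.

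Complex V had 20 members, all with loops, and median percentiles of 70.8 and 80.8. ATP5F1D, the delta subunit of the central stalk, led in mean H3K27ac contact with 126 at 0 m, then 187, 131, 131 and 121 from 30 m to 72 h of DHT. ATP5ME, subunit e of the membrane part, was close to it, and above it at 16 h, with 102 at 0 m, then 170.0, 117, 140.1 and 111 from 30 m to 72 h of DHT and led in H3K4me3 with 306 at 0 m, then 332, 349.9, 284 and 199 from 30 m to 72 h of DHT. ATP5PD, subunit d of the peripheral stalk, followed in H3K4me3 with 219 at 0 m, then 253, 293, 201 and 166 from 30 m to 72 h of DHT. ATP5F1D was 1 of the few that ranked higher in H3K27ac (97.5) than in H3K4me3 (90.7).

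The genes ATP5MC1, ATP5MC2 and ATP5MC3 encode the same mature c subunit of the proton-conducting ring. ATP5MC1 had 69 loops and an H3K27ac contact of 55.2 at 0 m, then 87.6, 58.5, 84.9 and 87.4 from 30 m to 72 h of DHT. ATP5MC3 had 14 loops and an H3K27ac contact of 14.4 at 0 m, then 12.2, 13.5, 11.0 and 8.42 from 30 m to 72 h of DHT, below that of ATP5MC1 at every time point. ATP5MC2 had 2 loops at its gene start, with a mean H3K27ac contact of 1.07. At the start of its canonical transcript, 1325 bp away, it had 50 loops and a mean contact of 133 in H3K27ac and 98.1 in H3K4me3. The H3K27ac value there is above the mean of ATP5MC1 (74.7) and lies between those of ATP5F1D (139) and ATP5ME (128), so its low rank holds for the gene start alone.

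Members without a loop at the gene start included NDUFB2, UQCRHL, COX8C, COX7A2L and COX4I2. UQCRHL is a retained copy of UQCRH. For NDUFB2 and COX7A2L the canonical transcript begins 5931 and 63871 bp from the annotated gene start, and there the promoters had 32 and 60 loops. The H3K27ac contact of COX7A2L, a factor in the assembly of respiratory supercomplexes, was at that start 64.1 at 0 m, then 76.7, 71.6, 105.1 and 96.8 from 30 m to 72 h of DHT. UQCRHL, COX8C and COX4I2 had none at either start, so that with the canonical start 87 of 90 members had loops.

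OXPHOS promoters lay close to other genes. The start of another coding gene stood within 2.5 kb of 42 of 90 members (46.7%), against 21.1% of all coding genes, and on the opposite strand for 35 (38.9%) against 16.1%. Examples are UQCRH with LRRC41 (82 bp), SDHD with TIMM8B (26 bp), SDHA with CCDC127 (150 bp), NDUFA7 with RPS28 (217 bp) and COX4I1 with EMC8 (975 bp). Contacts of such a pair fall in the same window, so their shares cannot be told apart. The read-through genes NDUFC2-KCTD14 and ATP5MF-PTCD1 share all 36 and all 11 loops with NDUFC2 and ATP5MF and add no information of their own. Chromosome 19 held 12 of the 90 members (13.3%) and 7.36% of all coding genes.

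The loops of the members had a median length of 275 kb, against 225 kb for all loops at coding promoters. Of the 3328 loops, 819 (24.6%) joined the promoters of different genes, against 13.6%. A loop between different genes can enter a set through either gene, but enters the total once. Any small set of genes is therefore expected to have a higher share than the total by counting alone. Whether the members differ from other genes was not tested. The same weighting applies to the lengths and to the shares by mark that follow. Of the member loops 64.9% were called in H3K4me3 only, 16.7% in H3K27ac only and 18.4% in both, against 59.4, 21.9 and 18.7% of all. The strongest loop of a member held a median of 28.9% of its H3K27ac contact and was at most 15 kb long for 70 of 84 members. It was the same loop in both marks for 66.

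Strong contacts over long distances were few. The strongest H3K27ac loop of ATP5MC1 joined chr17:46797001-46798000, at the promoter of PRAC1, to chr17:46967001-46968000, 170 kb away, and held 13.8% of its contact. That of NDUFB10 joined chr16:2012001-2013000 to chr16:2017001-2018000, at the promoters of RPS2 and RNF151, and held 33.6%. That of UQCRH lay within 5 kb, from chr1:46767001-46768000 to chr1:46772001-46773000, and held 52.4%. The strongest loop of NDUFB4, 1 of 95, ran from chr3:120312001-120313000 to chr3:120317001-120318000 and held 19.8% of its H3K27ac contact.

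Only 2 loops joined members to each other, both on chromosome 19 and both weak. A 220 kb loop between NDUFS7 (chr19:1382001-1383000) and UQCR11 (chr19:1602001-1603000) had 3 to 12 H3K4me3 read pairs per time point. A 2485 kb loop between NDUFA11 (chr19:5902001-5903000) and NDUFA7 (chr19:8387001-8388000) had 0 to 4. Of 21 androgen-induced genes looked for at the far anchors, 1 was found, CAMKK2, in an 860 kb loop with COX6A1 that had 1 to 5 H3K4me3 read pairs per time point.

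For changes with DHT, the log2 ratio of a promoter's contact to that at 0 m was set against the median ratio of all coding promoters with at least 100 read pairs in that comparison, and a promoter at least 0.5 above or below that median was called higher or lower. This relative change does not depend on the scaling between libraries. The medians of all promoters themselves were 0.30, 0.04, 0.20 and 0.21 for H3K27ac and 0.04, 0.23, 0.12 and -0.17 for H3K4me3, in the order of the time points. All comparisons share the 0 m library of their mark.

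As a group the OXPHOS promoters stayed near the median of all promoters at every time point. Their median relative H3K27ac change was 0.03, -0.01, -0.08 and -0.10 in time order, among 77, 71, 70 and 70 members with enough read pairs. For H3K4me3 it was 0.05, 0.01, 0.08 and -0.01 among 78, 80, 78 and 78. Beside them, the cytosolic ribosomal protein genes, another large group of nearly always active genes, stood at 0.01, -0.01, -0.13 and -0.20 in H3K27ac. In H3K4me3 the ribosomal protein genes stood at 0.01, 0.07, 0.13 and -0.07. The androgen-induced genes stood at -0.15, 0.32, 0.33 and -0.15 in H3K27ac and at 0.01, 0.15, 0.53 and 0.17 in H3K4me3.

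**Figure D3:**
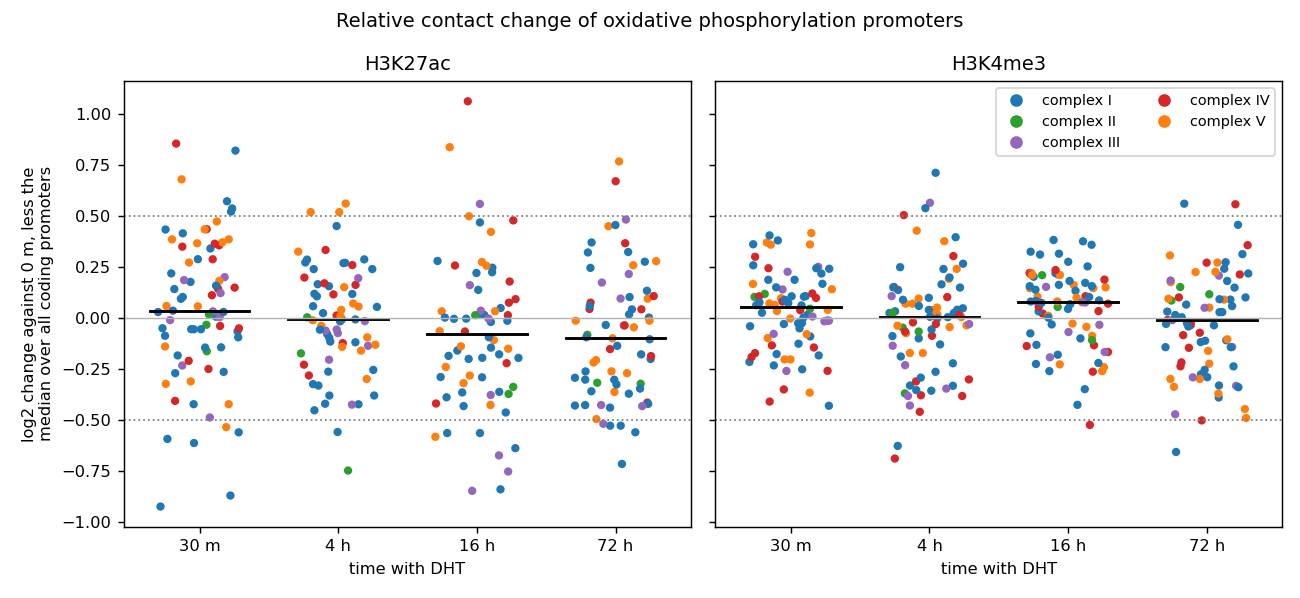
Log2 change in summed contact against 0 m, less the median over all coding promoters, after 30 m and 4, 16 and 72 h of DHT in H3K27ac (left) and H3K4me3 (right). Points are OXPHOS genes with at least 100 read pairs, coloured by complex and spread sideways for visibility, black bars are their medians, and dotted lines mark 0.5 and -0.5. The medians lie between -0.10 and 0.08, and more points pass the dotted lines in H3K27ac than in H3K4me3.

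At 30 m, 6 of 77 members were called higher in H3K27ac, where 6.63% of all promoters were, and 6 were called lower, where 10.8% were. NDUFV2 was lowest, its contact of 98.1 at 0 m, then 63.7, 77.8, 101 and 77.1 from 30 m to 72 h of DHT giving a relative change of -0.92 (interval -1.14 to -0.70). NDUFB4 followed with -0.87 (interval -1.02 to -0.72), from the contact values given above. Both were also below the median at each later time point, and their H3K4me3 contact did not follow, with -0.01 (interval -0.26 to 0.24) for NDUFV2 and 0.15 (interval -0.13 to 0.43) for NDUFB4. The fall at 30 m did not rest on short loops, since with loops of at least 20 kb alone it was -1.07 for NDUFV2 and -0.98 for NDUFB4.

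The largest relative increases at 30 m were those of COX7A1 and NDUFA11. COX7A1 had 0.86 (interval 0.26 to 1.49), all of it in 1 loop, with contact of 8.82 at 0 m, then 19.6, 10.5, 14.4 and 16.8 from 30 m to 72 h of DHT. NDUFA11 had 0.82 (interval 0.64 to 1.01), with its contact highest at 30 m, and kept 0.80 with loops of at least 20 kb.

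At 4 h in H3K27ac, 3 of 71 members were called higher (3.18% of all promoters) and 2 lower (1.88%). SDHA was lowest with -0.75 (interval -1.32 to -0.17), its contact being lower at 4 h than at any other time point. NDUFB8, an accessory subunit of complex I, had -0.56 (interval -1.13 to 0.02), whose interval includes 0. ATP5F1B, the catalytic beta subunit of the ATP synthase, had 0.56 (interval 0.09 to 1.05), and ATP5MF, subunit f, had 0.52 (interval 0.08 to 0.98), which its read-through gene repeats. Without their strongest loops SDHA had -0.61 (interval -1.24 to 0.03) and ATP5MF 0.39 (interval -0.30 to 1.11), each from under 100 read pairs.

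At 16 h, 3 of 70 members were called higher in H3K27ac (13.4% of all promoters) and 8 lower (14.2%), of which NDUFC2-KCTD14 repeats NDUFC2. With at least 30 read pairs in place of 100, 7 of 80 were called higher (15.4% of all promoters) and 9 lower (18.2%). The 4 lowest were UQCRFS1, the Rieske iron-sulfur protein of complex III, NDUFA7, UQCRB and UQCR11, 3 of them from complex III. The contact of UQCRFS1 was 35.3 at 0 m, then 43.5, 34.8, 22.5 and 46.0 from 30 m to 72 h of DHT, a relative change at 16 h of -0.85 (interval -1.24 to -0.46), and it was back above the median at 72 h with 0.17 (interval -0.17 to 0.52). The contact of NDUFA7 was 97.0 at 0 m, then 99.0, 83.3, 62.2 and 68.4 from 30 m to 72 h of DHT, a relative change of -0.84 (interval -1.07 to -0.61). UQCRB had -0.75 (interval -1.34 to -0.17) and UQCR11 had -0.67 (interval -0.92 to -0.42). The value of UQCR11 was -0.30 with loops of at least 20 kb alone, while those of UQCRFS1 and NDUFA7 were -0.82 and -0.81.

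The 4 highest at 16 h were COX7A2, ATP5F1B, UQCRH and ATP5PD, and the values of COX7A2 and UQCRH each rest on 1 loop. COX7A2 had 1.06 (interval 0.51 to 1.65) in the 1 loop at its gene start, with contact of 10.3 at 0 m, then 14.0, 10.5, 24.6 and 18.9 from 30 m to 72 h of DHT, and 0.46 over the 65 loops at its canonical start. UQCRH had 0.56 (interval 0.40 to 0.73), and its 5 kb loop alone went from 46.4 at 0 m to 131.4 at 16 h. Without that loop the value for UQCRH was -0.06. ATP5PD had 0.50 (interval 0.27 to 0.73), which falls just short of a call.

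ATP5F1B was the member called higher at all 4 time points in H3K27ac. Its contact was 16.2 at 0 m, then 31.8, 24.6, 33.1 and 31.8 from 30 m to 72 h of DHT, with a relative change of 0.84 (interval 0.39 to 1.31) at 16 h. Its 0 m value enters all 4 comparisons, so they do not repeat each other independently. Its H3K4me3 contact of 36.4 at 0 m, then 35.5, 45.6, 42.5 and 28.9 from 30 m to 72 h of DHT gave relative changes between -0.16 and 0.11. Without its strongest loop, which joins chr12:57042001-57043000 to chr12:57027001-57028000, the H3K27ac value at 16 h was 0.89.

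**Figure D4:**
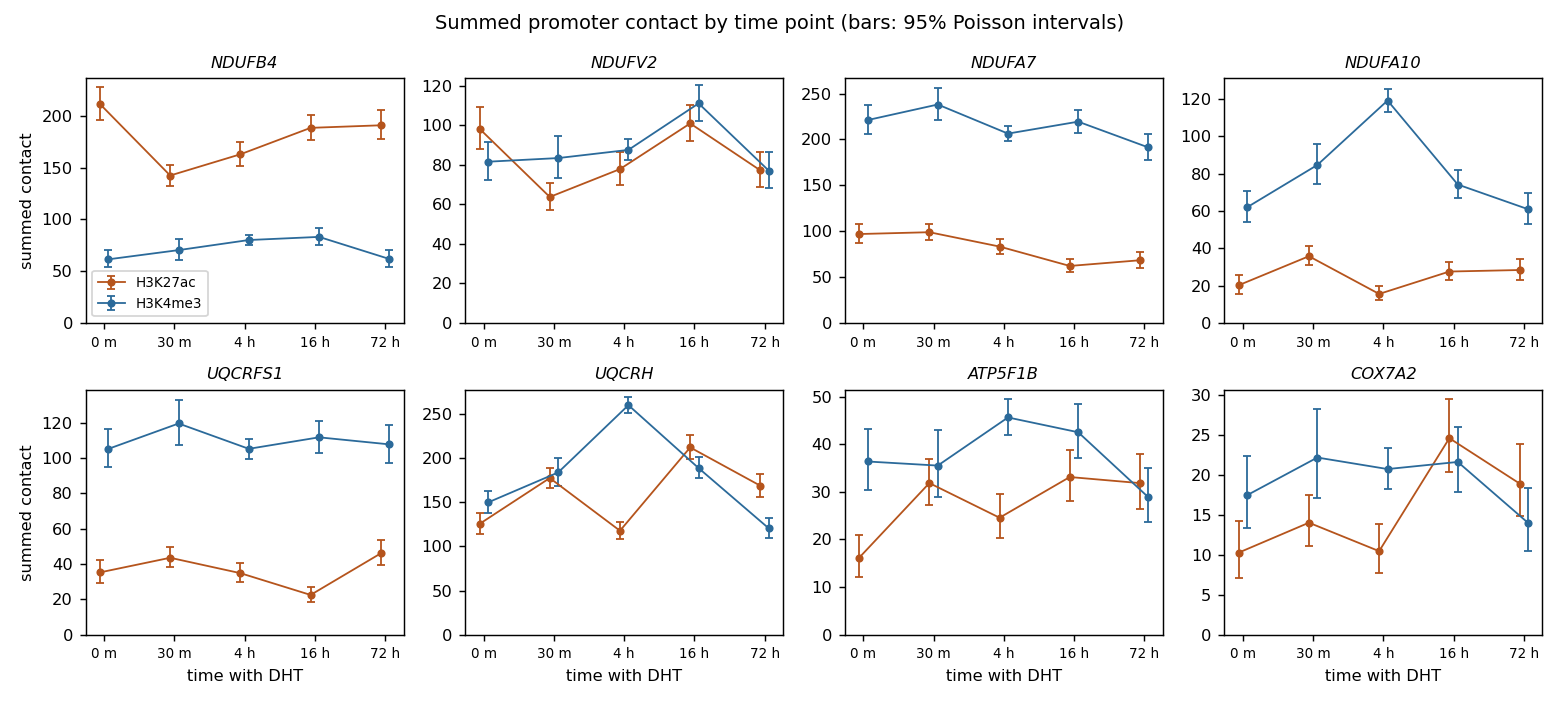
Summed contact of 8 OXPHOS promoters at 0 m and after 30 m and 4, 16 and 72 h of DHT, in deposited contact units, for H3K27ac (brown) and H3K4me3 (blue); points are the deposited values, bars are exact 95% Poisson intervals from read pairs, and levels cannot be compared between marks. NDUFB4 and NDUFV2 have their lowest H3K27ac contact at 30 m and UQCRFS1 and NDUFA7 at 16 h, ATP5F1B has its lowest at 0 m, and NDUFA10 and UQCRH have their highest H3K4me3 contact at 4 h.

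At 72 h, 2 of 70 members were called higher in H3K27ac (12% of all promoters) and 5 lower (12.9%). With at least 30 read pairs in place of 100, 6 of 80 were called higher (13.6% of all promoters) and 4 lower (15.4%), so that the balance between directions depends on this minimum. NDUFA7 was again lowest with -0.71 (interval -0.95 to -0.47), followed by NDUFV2 with -0.56 (interval -0.79 to -0.33). The highest were ATP5F1B with 0.77 (interval 0.30 to 1.26) and COX7A2 with 0.67 (interval 0.07 to 1.30). The value of COX7A2 rests on the 1 loop at its gene start. Over the 65 loops at its canonical start it was 0.46, which is no call. By complex, the members of complex I had the median relative change furthest from 0 among the complexes with more than 4 genes, -0.19, with 0 called higher and 4 lower of 34, where 12.9% of all promoters were lower. The 4 include NDUFC2 and its read-through gene, which share all loops and hold the same value.

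Fewer members were called in H3K4me3 than in H3K27ac, except at 4 h. Member loops held more read pairs in H3K4me3 than in H3K27ac at 0 m (27865 against 11886), so counting error differs between the marks. At 30 m 0 of 78 members were called in either direction, where 0.702% of all promoters were called higher and 1.94% lower. The values furthest from the median were those of ATP5PB, subunit b of the peripheral stalk, with 0.42 (interval 0.04 to 0.80), NDUFA10 with 0.41 (interval 0.14 to 0.67), NDUFB6 with -0.43 (interval -0.81 to -0.05) and COX5B with -0.41 (interval -0.90 to 0.08).

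At 4 h, 4 of 80 members were called higher in H3K4me3 (7.75% of all promoters) and 2 lower (7.96%). This comparison rests on the deepest library of the series. NDUFA10, an accessory subunit of complex I, was highest with 0.71 (interval 0.51 to 0.92), from contact of 62.0 at 0 m, then 84.7, 119, 74.2 and 61.0 from 30 m to 72 h of DHT. UQCRH had 0.57 (interval 0.43 to 0.70), again mostly in its 5 kb loop, since the value without it was 0.29. The lowest were COX6A2 with -0.69 (interval -1.13 to -0.23) and NDUFV1 with -0.63 (interval -0.94 to -0.31). Without its strongest loop COX6A2 had -0.45 (interval -0.95 to 0.09), which is no call. NDUFA10 had no such change in H3K27ac at 4 h, at -0.42 (interval -0.92 to 0.07).

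At 16 h, 0 of 78 members were called higher in H3K4me3 (2.17% of all promoters) and 1 lower (1.9%), COX7A1 with -0.52 (interval -0.88 to -0.16). After it came NDUFV1 with -0.42 (interval -0.79 to -0.05), NDUFS7, a core iron-sulfur subunit, with -0.35 (interval -0.49 to -0.20), and COX6B2 with -0.26 (interval -0.53 to 0.01). The highest were NDUFS4, a subunit whose loss causes Leigh syndrome, with 0.38 (interval 0.06 to 0.71), and NDUFB8, NDUFB9 and NDUFV2 with 0.38, 0.36 and 0.33. NDUFB8, NDUFB9 and NDUFV2 had relative H3K27ac changes of -1.03, -0.64 and -0.16 at the same time, the first from under 100 read pairs.

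At 72 h, 2 of 78 members were called higher in H3K4me3 (3.56% of all promoters) and 2 lower (2.73%). NDUFS4 had 0.56 (interval 0.21 to 0.91) and COX6A2 0.56 (interval 0.05 to 1.07), while NDUFV1 had -0.65 (interval -1.11 to -0.21) and COX7A1 -0.50 (interval -0.92 to -0.09). With loops of at least 20 kb alone COX6A2 had 0.38 (interval -0.15 to 0.92) and NDUFV1 -0.42 (interval -1.04 to 0.18, from 99 read pairs), neither of them a call, and the loop of COX7A1 is shorter than that. The H3K4me3 contact of NDUFS4 was 33.8 at 0 m, then 45.4, 57.7, 47.9 and 44.3 from 30 m to 72 h of DHT, above 0 m at each time point with DHT. That of NDUFV1 was 32.7 at 0 m, then 28.4, 24.9, 26.5 and 18.4 from 30 m to 72 h of DHT, below 0 m at each. Over both marks and all time points there were 46 calls in 602 comparisons of a member with its 0 m value (7.64%), against 12.7% over all coding promoters. These shares are not matched for depth, and counting error passes a fixed limit more often where read pairs are few. The median contact of members with loops was 34.4 in H3K27ac and 85.3 in H3K4me3, against 19.6 and 35.4 for all promoters with loops. The lower share therefore does not show that member contacts were more stable. Of the 46 calls, 41 had a counting interval that excludes 0 relative change; 31 kept at least 100 read pairs with loops of at least 20 kb, and 25 of these were still called in the same direction. Without the read-through genes, which repeat other members, the calls were 43, with 38 intervals that exclude 0, and 23 of 29 were still called.

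Other genes of the pathway were counted in the same way. Of 50 assembly factors, 48 had loops, with median percentiles of 60.3 in H3K27ac and 67.8 in H3K4me3. At 16 h 6 of 37 were called higher in H3K27ac (16.2%) and 6 lower (16.2%), near the shares of all promoters (13.4 and 14.2%). LRPPRC, which stabilizes mitochondrial mRNA, had relative H3K27ac changes of 0.81 at 30 m, 0.79 at 16 h and 0.93 at 72 h, and ACAD9, an assembly factor of complex I, had -1.36 at 16 h and -0.74 at 72 h. The 18 genes of the citric acid cycle and the pyruvate dehydrogenase all had loops, with median percentiles of 57.1 and 61.4, and at 16 h 1 of 14 was called higher in H3K27ac (7.14%) and 2 lower (14.3%), against the same 13.4 and 14.2%. SUCLA2, a subunit of succinyl-CoA synthetase, had 0.76 at 16 h and 0.94 at 72 h. Of 17 regulators of mitochondrial biogenesis 16 had loops, PPARGC1A being without, and at 16 h 0 of 13 were called higher or lower in H3K27ac, where 13.4 and 14.2% of all promoters were. At 4 h 2 of 14 biogenesis regulators were called higher in H3K27ac (14.3%, against 3.18% of all promoters) and 0 lower. They were TFAM, which packages mitochondrial DNA, with 0.53 and PPARGC1B, a coactivator, with 0.87.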

How the data were processed

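H3K27ac and H3K4me3 HiChIP read pairs of LNCaP cells were trimmed by the authors with Trim Galore 0.5.0 and aligned to hg19 with Bowtie2 within HiC-Pro 3.1.0, as their processing notes and methods state, with low-quality and duplicate pairs removed. Loops were called by the authors with FitHiChIP in 5 kb bins on data merged over the time course of a mark, DHT and vehicle alike. The deposited values are contact signal, taken by the authors from binned contact maps and scaled by TMM among the 5 time points of a mark, with 1 value per loop, mark and time point. Whether both H3K27ac replicates entered a value is not given in the sources used here.

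All 15 labelled samples were assigned to 10 groups by mark and time point. Read pairs were recovered by dividing the values by that of 1 read pair, which gave whole numbers for 100% of them (tolerance 0.01 of a read pair). Each of the 505995 different anchor pairs was counted once, and a loop belonged to a gene if an anchor reached, by 1 bp or more, into the 2.5 kb on either side of the gene start (Gencode 44 lifted to hg19). Log2 changes carry exact 95% intervals (Clopper-Pearson) on the share of read pairs, which cover counting error only. With 1 value per group no test across promoters was run: promoters with at least 100 read pairs were called at a distance of 0.5 (log2) from the median of all. The calls were tested on simulated data that held counting error only, so this test cannot show how calls behave under variation between replicates or libraries.

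The text names, for levels, the SDH genes, the 2 members of each other complex with the most contact in either mark, and the isoform pairs. For changes it names the 4 largest either way at 16 h and the 2 largest at other times. Other genes were named after their values were seen. Single results for some genes are not reported here. The members and lists were chosen with earlier results of these data known. The alternatives changed the promoter window, the loops summed, the read pairs required, the fold and the scaling. Python 3.11.15, numpy 2.4.6, pandas 2.3.3, scipy 1.17.1 and matplotlib 3.10.9 were used.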

Additional observations from a re-analysis of the deposited data

How the results depend on the processing

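No paired analysis was possible because the tables hold 1 value per mark and time point. For the same reason no replicate could be left out. The median relative change of OXPHOS promoters stayed between -0.15 and 0.10 under every alternative run, and equal library totals leave it as it is by construction. In H3K27ac at 30 m it was 0.0937 with loops of at least 20 kb, 0.0797 with a mean contact of at least 1, 0.0738 with at least 30 read pairs and 0.0888 for the summed contact of all member loops. At 4 h it changed sign to 0.0349 with loops of the H3K27ac set alone, 0.0144 with loops of at least 20 kb and 0.0032 if mean contact had to reach 1. At 16 h it was -0.144 with that set, -0.0339 with at least 30 read pairs and -0.148 summed, and at 72 h -0.0334 and -0.138 under the last 2. In H3K4me3 at 30 m it was 0.0122 with a window of 1 kb and 0.0218 with loops of at least 20 kb. At 4 h it changed sign to -0.0297 with a window of 1 kb, -0.0098 with loops of at least 20 kb, -0.0173 with loops of the H3K4me3 set and -0.0196 summed. At 16 h it was 0.0573 with that set and 0.0137 summed, and at 72 h -0.0621 summed, with a change of sign to 0.0137 with loops of at least 20 kb, 0.0098 if mean contact had to reach 1 and 0.0012 with the canonical start. The cause was not tested.

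With a fold of 1 (log2), 1 member was called in H3K27ac at 16 h (COX7A2) and 0 in the 6 other comparisons that had calls, where 0.0515 to 4.27% of all promoters were called in these 7. With a window of 1 kb, which leaves 53 members with loops in place of 84 because anchors of 1 kb lie 5 kb apart, the calls were 7, 3, 4 and 2 in H3K27ac in time order (14.3, 6.67, 8.89 and 4.55% of members, against 17.4, 5.07, 27.1 and 24.1% of all promoters), and 2 in H3K4me3 at 4 h (4% against 15.4%). With loops of at least 20 kb the calls were 15, 2, 11 and 9 in H3K27ac in time order. These are 22.1, 3.51, 19 and 15.8% of members, against 18.4, 4.63, 23.7 and 22.1% of all promoters. At 30 m the share of members was thus above that of all promoters, while with all loops it was below (15.6% against 17.4%). In H3K4me3 there was 1 call at 30 m (1.41% against 3.23%), and at 16 h 1 higher and 0 lower in place of 0 and 1. With at least 30 read pairs, 7 were higher and 9 lower in H3K27ac at 16 h (15.4 and 18.2% of all promoters) in place of 3 and 8, and 6 and 4 at 72 h in place of 2 and 5. The start of the canonical transcript and the omission of the strongest loop were chosen as alternatives after the data were seen. The change of UQCRH in H3K27ac at 16 h changed sign to -0.068 with loops of at least 20 kb and -0.056 without its strongest loop. The median loop was backed by only 1 to 7 read pairs at a time point, so single loops could rarely be compared.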

Other observations

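The mitochondrial chromosome, which encodes the subunits of complexes I, III, IV and V that the nucleus does not, is present in the tables as 1 loop, called in both marks. It held 986 to 1499 read pairs per time point in H3K27ac, 0.0276 to 0.0482% of all, with the highest share at 0 m. In H3K4me3 it held 135 to 607 read pairs, 0.00567 to 0.0233%, with the lowest share in the deep 4 h library. Mitochondrial DNA carries no histones, and these values were used in no comparison.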
